A study of Mus musculus with 4 samples.

Results

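Efferocytosis, the uptake of dying cells by phagocytes, was followed through 10 genes in macrophages of mouse perigonadal fat: the receptors Axl, Mertk, Stab2 and Lrp1, the bridging molecules Gas6, Pros1 and Mfge8, the integrin subunits Itgav and Itgb5, and the engulfment adaptor Elmo1. They were taken by symbol, each matching a single gene, out of 32285 genes counted in every library, and measured in all cells of at least 500 unique molecular identifiers (UMIs), at least 300 genes and at most 10% mitochondrial UMIs. The study sorted live macrophages from this fat depot by the surface proteins CD45, CD11b and CD64 and profiled them with droplet-based 3′ single-cell RNA sequencing. Its 4 groups were BLIMP1 conditional knockout mice on high-fat diet (CKO HFD), wild-type control mice on high-fat diet (WT HFD), knockout mice on normal diet (CKO normal diet) and wild-type control mice on normal diet (WT normal diet). Each group was 1 library, so group and library cannot be told apart, and every interval between groups below is a 95% interval for counting error only. The sources used here give neither the number or age of the animals nor the driver of the deletion and the exons it removes. BLIMP1 is a transcriptional repressor encoded by Prdm1.

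A dying cell exposes phosphatidylserine on its surface. Axl and Mertk, receptor tyrosine kinases, do not bind this lipid themselves: Gas6 and protein S, the product of Pros1, bridge the lipid to the receptor, and Gas6 serves both receptors while protein S serves Mertk but not Axl. Mfge8 bridges the same lipid to integrins that contain the αv subunit (Itgav), among them αvβ5 (Itgav with Itgb5). Stab2 is a scavenger receptor best known from sinusoidal endothelium, Lrp1 is a large endocytic receptor that takes part in engulfment, and Elmo1 works with a DOCK protein as an exchange factor for Rac, the switch that moves the actin cup around the corpse.

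The promoters of Mertk, Gas6 and Pros1, a receptor and its ligands whose RNA moved together in Lyve1+ cells, are shown with that of Axl, which moved the other way. Each runs 5′ to 3′ on the strand of the gene, from 250 bases before to 50 bases after the gene's start in RefSeq (GRCm38.p6). Capitals mark the GC box GGGCGG, a motif bound by Sp1, or its reverse complement CCGCCC. Windows are chr2:128698665-128698964 (plus strand) for Mertk, chr8:13494486-13494785 (minus) for Gas6, chr16:62854057-62854356 (plus) for Pros1 and chr7:25788684-25788983 (minus) for Axl.
Mertk: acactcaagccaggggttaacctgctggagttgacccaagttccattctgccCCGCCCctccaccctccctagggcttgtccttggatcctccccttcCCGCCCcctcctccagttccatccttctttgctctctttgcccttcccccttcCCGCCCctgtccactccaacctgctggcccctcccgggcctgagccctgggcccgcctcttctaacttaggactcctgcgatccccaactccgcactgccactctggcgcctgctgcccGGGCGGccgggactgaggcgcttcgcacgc
Gas6: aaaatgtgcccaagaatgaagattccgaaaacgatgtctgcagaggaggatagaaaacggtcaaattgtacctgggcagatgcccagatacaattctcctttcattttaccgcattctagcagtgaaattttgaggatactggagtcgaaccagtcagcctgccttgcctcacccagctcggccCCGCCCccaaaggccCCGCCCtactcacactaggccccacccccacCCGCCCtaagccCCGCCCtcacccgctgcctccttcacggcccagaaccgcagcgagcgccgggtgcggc
Pros1: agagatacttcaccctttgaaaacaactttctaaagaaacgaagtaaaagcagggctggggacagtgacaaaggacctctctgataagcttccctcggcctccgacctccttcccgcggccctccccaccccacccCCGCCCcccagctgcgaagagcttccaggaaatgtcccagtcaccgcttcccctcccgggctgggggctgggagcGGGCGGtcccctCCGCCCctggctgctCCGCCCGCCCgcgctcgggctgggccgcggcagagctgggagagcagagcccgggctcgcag
Axl: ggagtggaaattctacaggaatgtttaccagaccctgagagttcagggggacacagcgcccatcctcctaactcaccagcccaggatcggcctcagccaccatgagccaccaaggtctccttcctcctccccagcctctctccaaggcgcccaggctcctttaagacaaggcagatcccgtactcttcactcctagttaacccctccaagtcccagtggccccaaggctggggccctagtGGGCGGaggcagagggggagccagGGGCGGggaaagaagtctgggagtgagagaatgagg
The GC box stood 4 times in the Mertk window, 4 times in that of Gas6, 5 times in that of Pros1 and 2 times in that of Axl. It was found in 9 of the 11 promoters that RefSeq lists for the members, against 35.7% of all 32851 promoters in the same table. On either strand, the PU.1 motif GAGGAAGT was in the promoters of Elmo1 and Itgav, against 3.2% of all promoters. The AP-1 motif TGANTCA (7.81% of all promoters) and the BLIMP1 motif AGTGAAAG (1.32%) were in none of the 11. A pair of the GC boxes of Pros1 share letters with each other. A match, or its absence, describes these windows alone.

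The libraries held 8731, 4650, 4302 and 3705 kept cells in CKO HFD, WT HFD, CKO normal diet and WT normal diet, with median depths of 3923, 14492.5, 3939 and 4092 UMIs per cell. Because WT HFD was so much deeper, each cell was thinned at random to 2000 UMIs, which left 7655, 4583, 3482 and 3030 cells. Levels below are counts per 1000000 UMIs (CPM), summed over these thinned cells. All 9 macrophage markers examined were detected in every library. Cells with at least 3 fibroblast markers numbered 58, 47, 4 and 2, and cells with at least 3 markers of type 2 conventional dendritic cells made up 2.47%, 1.88%, 11.4% and 11% of the thinned cells. Summed markers of non-classical monocytes stood at 411, 318, 1029 and 1243 CPM, and of classical monocytes at 1120.2, 894, 2045 and 2150.5 CPM, in the same order. Of 21353 distinct barcodes, 35 occurred in a pair of libraries. Prdm1 stood at 22.6 CPM in CKO HFD, 22.3 in WT HFD, 35.8 in CKO normal diet and 30.4 in WT normal diet. A 3′ tag outside the deleted part checks nothing about the deletion.

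**Figure D1:**
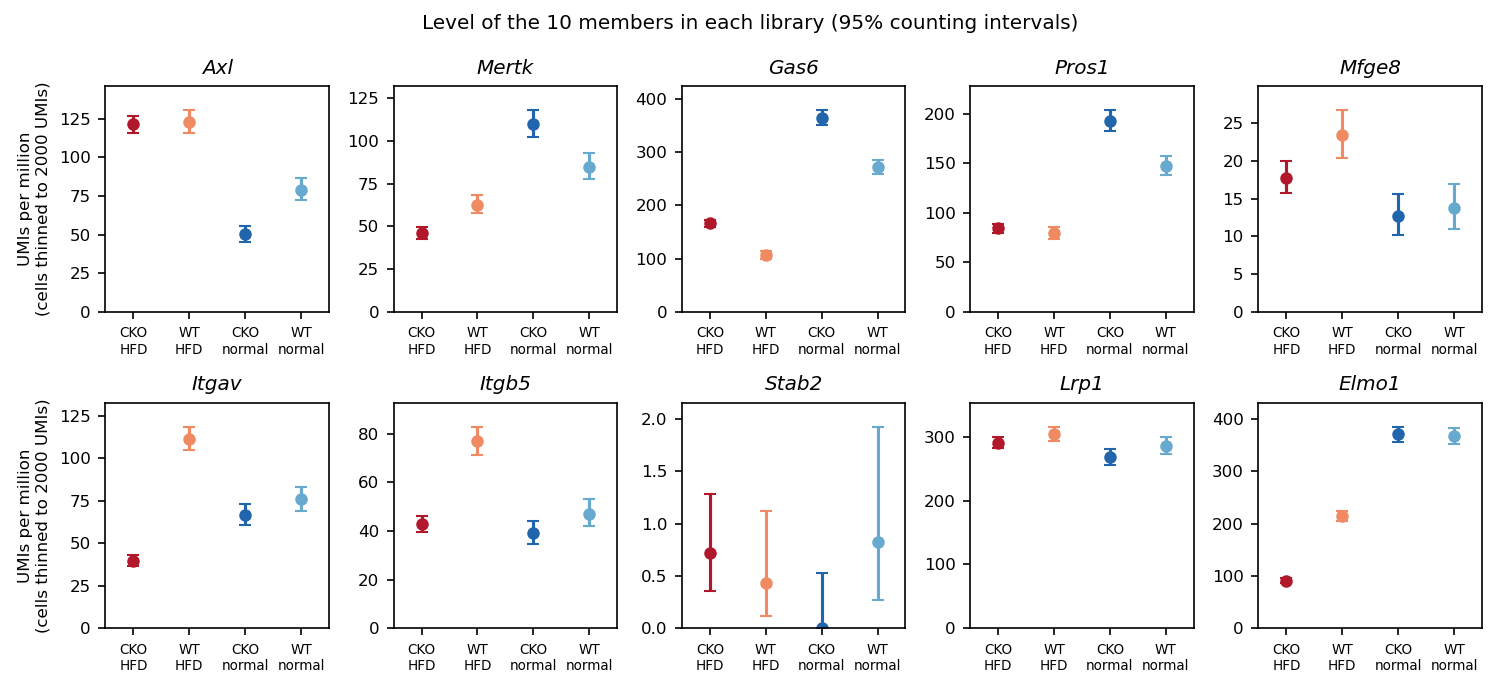
Level of each of the 10 genes (CPM, linear axis from 0, each cell thinned to 2000 UMIs) in the 4 libraries; points are library levels and bars exact 95% Poisson intervals for counting error. Axl is higher in both HFD libraries, Gas6, Pros1 and Elmo1 are higher in both normal-diet libraries, and Itgav and Itgb5 are highest in WT HFD.

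Axl was higher and Mertk lower in both HFD libraries than in either normal-diet library. Axl, a receptor that inflammatory signals induce in cultured mouse macrophages, stood at 121 CPM (116 to 127) in CKO HFD, 123 (116 to 131) in WT HFD, 50.1 (45.0 to 55.7) in CKO normal diet and 79.0 (72.1 to 86.4) in WT normal diet. The HFD intervals overlap each other, and both lie above WT normal diet, which lies above CKO normal diet. Mertk, the receptor most used by resting tissue macrophages, stood at 45.9 CPM (42.6 to 49.4) in CKO HFD, 62.7 (57.7 to 68.1) in WT HFD, 109.9 (102 to 118) in CKO normal diet and 85.0 (77.8 to 92.7) in WT normal diet. No intervals of Mertk overlap, and its order is the reverse of that of Axl in the normal-diet pair. A UMI of Axl was found in 19.7% of CKO HFD cells, 20.1% of WT HFD, 8.41% of CKO normal diet and 12.9% of WT normal diet cells at equal depth (34.5%, 63.6%, 18.6% and 25.0% without thinning). For Mertk the shares were 7.97%, 10.4%, 17.2% and 13.7% (15.7%, 39.1%, 28.8% and 25.5% without thinning). Among lymphoid cells, which should lack both genes, Axl was found in 1 of 17 CKO HFD cells and in 0 of 13, 0 of 15 and 0 of 18 cells of the other libraries, and Mertk in none of the 4 sets. Mertk was also at 0 of 58 and 0 of 47 fibroblast-marked cells of CKO HFD and WT HFD, while Axl was found in 26 and 18 of them.

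Both receptors were detected together in 1.28% of CKO HFD cells, 1.64% of WT HFD, 1.44% of CKO normal diet and 2.08% of WT normal diet cells, shares that the depth of 2000 UMIs limits. Mertk was found in 6.51% of cells with Axl and 8.33% of cells without it in CKO HFD, and in 8.15% against 10.9%, 17.1% against 17.2% and 16.2% against 13.3% in the other libraries in order. Gas6 was found in a larger share of cells with Mertk than without it in every library: 38.2% against 21.7% in CKO HFD, 30.7% against 12.3% in WT HFD, 65.7% against 30.7% in CKO normal diet and 54.6% against 24.0% in WT normal diet. In cells with Axl the share with Gas6 was lower than in cells without it in each library: 15.1% against 25.0%, 4.89% against 16.6%, 30.0% against 37.3% and 25.9% against 28.6%, in the same order. The gap in WT normal diet was within counting error. These shares describe cells of equal depth within 1 library and carry no test.

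The TAM ligands Gas6 and Pros1 were lower in both HFD libraries. Gas6 stood at 167 CPM (160 to 173) in CKO HFD, 106 (99.9 to 113) in WT HFD, 364 (350 to 379) in CKO normal diet and 272 (259 to 285) in WT normal diet. Pros1 stood at 84.2 CPM (79.7 to 88.9) in CKO HFD, 79.3 (73.7 to 85.3) in WT HFD, 193 (183 to 204) in CKO normal diet and 147 (138 to 157) in WT normal diet. Gas6 intervals are all separate, while those of Pros1 in CKO HFD and WT HFD overlap. Gas6 was detected in 23.0%, 14.2%, 36.7% and 28.2% of cells and Pros1 in 14.8%, 13.7%, 29.5% and 23.8%, in the same order of libraries (34.3%, 31.8%, 48.2% and 41.4%, and 28.1%, 57.5%, 49.0% and 44.2%, without thinning). The gene of Gas6 overlaps Tmem255b on the opposite strand, and that of Mertk an antisense gene; the sources used here do not say whether counting used the strand.

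Mfge8 was sparse and uneven between cells. It stood at 17.8 CPM (15.7 to 20) in CKO HFD, 23.3 (20.3 to 26.7) in WT HFD, 12.6 (10.1 to 15.6) in CKO normal diet and 13.7 (10.9 to 17.0) in WT normal diet, with a UMI in 3.11%, 3.23%, 2.50% and 2.48% of cells (6.80%, 15.7%, 5.74% and 4.97% without thinning). The 1% of cells richest in Mfge8 held 42.5% of its UMIs in CKO HFD and 61.6% in WT HFD, and a single WT HFD cell held 151 before thinning. Mfge8 was found in 17 of 58 and 15 of 47 fibroblast-marked cells of the HFD libraries, and in 1 of 17, 0 of 13, 3 of 15 and 0 of 18 lymphoid cells. In CKO HFD and CKO normal diet the share of all cells was below that of lymphoid cells at the same depth. Those lymphoid shares rest on 1 of 17 and 3 of 15 cells, too few to tell background from expression. No difference in shares of Mfge8 is drawn.

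The integrin subunits were highest in WT HFD. Itgav stood at 39.7 CPM (36.6 to 43.0) in CKO HFD, 111 (105 to 118) in WT HFD, 66.5 (60.6 to 72.8) in CKO normal diet and 75.7 (69.0 to 83.0) in WT normal diet. Itgb5 stood at 42.8 CPM (39.6 to 46.3) in CKO HFD, 77.0 (71.4 to 82.9) in WT HFD, 39.1 (34.6 to 44.0) in CKO normal diet and 47.2 (41.9 to 53.0) in WT normal diet. WT HFD is apart from the other 3 libraries for both subunits, whose remaining intervals overlap in part. A UMI of Itgav was found in 7.15%, 17.0%, 11.3% and 12.3% of cells and of Itgb5 in 7.80%, 13.2%, 6.69% and 8.45% (15.7%, 55.1%, 22.7% and 24.4%, and 15.9%, 52.8%, 12.8% and 16.4%, without thinning). Lymphoid cells carried Itgav too, in 6 of 17, 2 of 13, 3 of 15 and 4 of 18 cells, and Itgb5 in 1 of 18 cells of WT normal diet and none of the others.

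Lrp1 was nearly level, and Stab2 was at the edge of detection. Lrp1 stood at 291 CPM (282 to 299) in CKO HFD, 304 (293 to 316) in WT HFD, 268 (256 to 280) in CKO normal diet and 286 (273 to 299.8) in WT normal diet, in 42.4%, 42.1%, 39.9% and 41.5% of cells (63.2%, 91.2%, 61.3% and 62.5% without thinning). Stab2 had 11, 4, 0 and 5 UMIs among all thinned cells, or 0.718, 0.436, 0 and 0.825 CPM, and the 0 in CKO normal diet allows up to 0.431 CPM by the limit of 3 counts. Stab2 was below 10 CPM in every library, so that 9 of the 10 genes enter the comparisons of levels that follow. Elmo1 stood at 91.2 CPM (86.5 to 96.1) in CKO HFD, 213 (204 to 223) in WT HFD, 370.2 (356 to 385) in CKO normal diet and 367 (351 to 382) in WT normal diet. The normal-diet intervals of Elmo1 overlap, and CKO HFD is the lowest. Elmo1 was detected in 16.0%, 31.6%, 46.2% and 45.0% of cells (30.4%, 81.6%, 66.2% and 68.3% without thinning), and lymphoid cells carried it as well, in 12 of 15 and 14 of 18 cells of the normal-diet libraries.

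Under high-fat diet, the comparison of CKO with WT asks how loss of BLIMP1 goes with these genes in obese fat. Gas6 was 1.56 times (1.45 to 1.69) as high in CKO HFD as in WT HFD, the one gene of the 9 over 1.5-fold higher. Itgav, at 0.357 times the WT HFD level (0.322 to 0.395), Elmo1, at 0.427 (0.399 to 0.458), and Itgb5, at 0.556 (0.499 to 0.620), were over 1.5-fold lower. Past 1.5-fold were 5.84% of 7870 genes higher and 21.1% lower, so 3 of 9 lower is near the share of all genes. Mertk, at 0.732 (0.655 to 0.819), Mfge8, at 0.761 (0.634 to 0.915), Axl, at 0.985 (0.915 to 1.06), Lrp1, at 0.955 (0.911 to 1.00), and Pros1, at 1.06 (0.969 to 1.16), were within the 1.5-fold limits. The higher level of Gas6 was not seen among deeper cells. Among cells of at least 4000 UMIs, thinned to 4000, 48.6% of CKO HFD and 97.7% of WT HFD kept cells, its log2 ratio was −0.075, against 0.65 at 2000 UMIs and 0.52 with all counts.

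The ratio of CKO HFD over WT HFD also moved with gene length. Genes were put into 10 groups of equal size by span, and the median log2 ratio ran from 0.22 in the group of the shortest genes to −0.80 in that of the longest. Elmo1, which spans 518 kb, had −1.23 against −0.80 for its span group, Itgav had −1.49 against −0.56, and Itgb5 had −0.85 against −0.56. Mertk (104 kb) had −0.45 against −0.56, so that it lay 0.11 above genes of like span. Gas6 (29.1 kb) had 0.65 against −0.24. Scaling by trimmed means (TMM) moved the median of all genes from −0.22 to 0.036 in this comparison, from −0.50 to 0.050 for HFD over normal diet in CKO and from −0.24 to 0.014 in WT. The part of gene length in any single ratio was not tested.

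Under normal diet the genotypes lay closer together. Axl, at 0.634 times the WT level (0.551 to 0.729) in CKO, was the one gene past 1.5-fold, against 1.08% of 8254 genes lower and 1.3% higher. Gas6, at 1.34 (1.26 to 1.43), Pros1, at 1.31 (1.2 to 1.43), and Mertk, at 1.29 (1.15 to 1.45), were above WT by less than 1.5-fold. Itgav, Itgb5, Lrp1, Mfge8 and Elmo1 had ratios between 0.828 and 1.01. The median log2 ratio in the group of the longest genes was 0.059 here, so length and ratio hardly moved together. Among cells of at least 4000 UMIs no gene of the 9 was past 1.5-fold lower.

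More of the 9 genes were past 1.5-fold between diets than between genotypes, and the same held for all genes. The shares of the 9 that were lower, 5 of 9 in CKO and 3 of 9 in WT, are near those of all genes. In CKO, HFD over normal diet was 2.42 (2.16 to 2.72) for Axl, the one gene over 1.5-fold higher, against 13% of 8332 genes. Elmo1 at 0.246 (0.231 to 0.263), Mertk at 0.418 (0.377 to 0.464), Pros1 at 0.436 (0.404 to 0.471), Gas6 at 0.457 (0.433 to 0.483) and Itgav at 0.597 (0.528 to 0.676) were lower, 5 of 9 against 46% of all genes. In WT, Mfge8 at 1.70 (1.32 to 2.22), Itgb5 at 1.63 (1.42 to 1.88) and Axl at 1.56 (1.40 to 1.74) were higher, 3 of 9 against 13.7% of 8408 genes, and Gas6 at 0.392 (0.361 to 0.424), Pros1 at 0.538 (0.487 to 0.594) and Elmo1 at 0.582 (0.548 to 0.619) were lower, 3 of 9 against 29.8%. Axl was thus over 1.5-fold higher under HFD in both genotypes, and Gas6, Pros1 and Elmo1 over 1.5-fold lower in both, of which Pros1 and Elmo1 were within 1.5-fold of genes of like span. Mertk, at 0.738 (0.654 to 0.833) in WT, was within the limits there, and Itgav had 1.47 (1.32 to 1.65) in WT where it was lower in CKO. Lrp1 had 1.09 (1.03 to 1.15) in CKO and 1.06 (1.00 to 1.13) in WT.

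Gene length moved with the diet ratios as well. From the shortest to the longest genes, the median log2 ratio of HFD over normal diet ran from 0.57 to −1.56 in CKO and from 0.33 to −0.67 in WT. The Axl log2 ratio of 1.28 in CKO and 0.64 in WT stood against −0.52 and −0.27 in its span group, and Gas6, at −1.13 in CKO and −1.35 in WT, against the same medians. Mertk in CKO, at −1.26, was close to its span group at −1.15, and Itgav, at −0.74, was above the same −1.15. Lrp1, at 0.12 in CKO and 0.089 in WT, and Itgb5, at 0.13 and 0.71, stood against −1.15 and −0.56. Relative to genes of like span, Lrp1 was thus higher by 1.27 and 0.65 and Itgb5 by 1.29 and 1.27, all past 1.5-fold. Mfge8, at 0.49 in CKO and 0.77 in WT, stood against −0.24 and −0.10. Pros1, at −1.20 in CKO and −0.89 in WT, stood against −0.86 and −0.56, and Elmo1, at −2.02 and −0.78, against −1.56 and −0.67. Relative to genes of like span, Pros1 was thus lower by less than 1.5-fold in both genotypes (−0.34 and −0.33), as was Elmo1 (−0.46 and −0.11). The share of cells with 3 markers of type 2 dendritic cells and the summed monocyte markers were lower in both HFD libraries, as given above, while the summed dendritic cell markers stood at 1270 CPM in CKO HFD, 932 in WT HFD, 1365 in CKO normal diet and 1200 in WT normal diet. Leaving out all cells with 3 markers of another type gave 1 higher and 5 lower in CKO, and 2 higher and 3 lower in WT. Axl in WT, at a log2 ratio of 0.58 without these cells against 0.64 with them, was then just within 1.5-fold, and Mfge8 had 0.65 against 0.77. Monocytes are not among the types removed, and their part in the diet ratios was not tested.

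**Figure D2:**
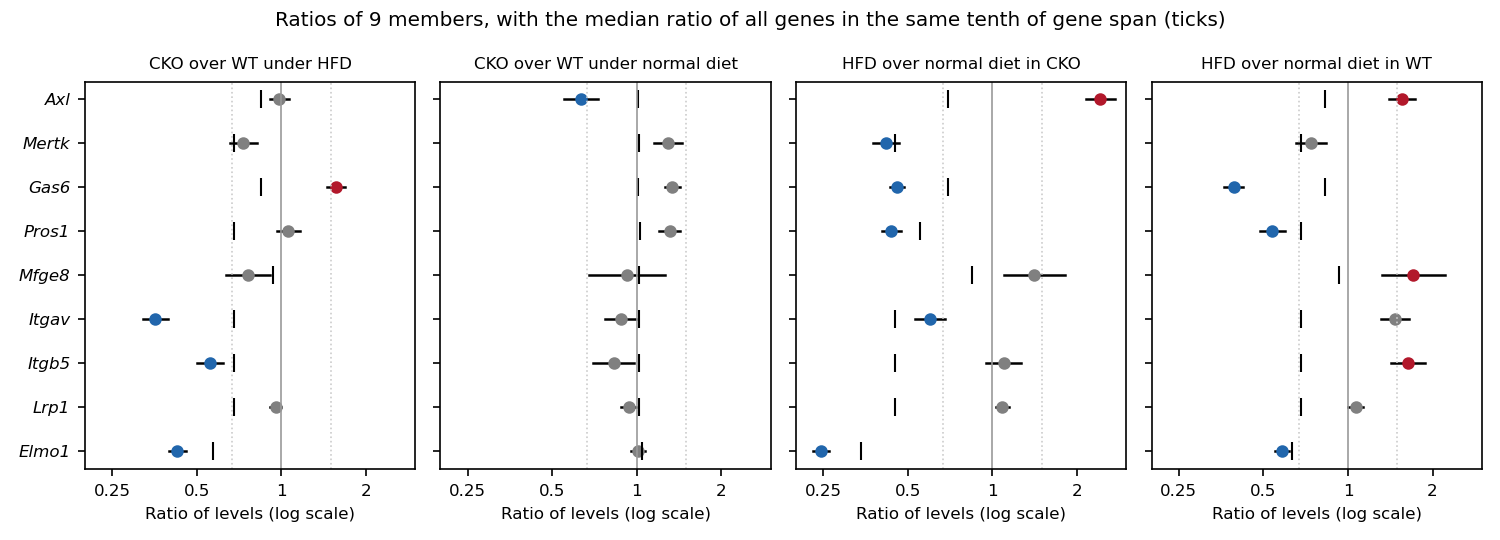
Ratio of levels (log axis) for the 9 genes above 10 CPM in 4 comparisons, with exact 95% counting intervals; red and blue points are past 1.5-fold (dotted lines) higher and lower, and black ticks are the median ratio of all genes in the same 1 of 10 groups by gene span. Axl lies right of its tick in both diet comparisons, Gas6 lies left of its tick, and Mertk in CKO lies close to its tick.

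To place the genes within the macrophage pool, cells were divided by a UMI of Lyve1 (a hyaluronan receptor of perivascular resident macrophages), Timd4 (a phosphatidylserine receptor of long-lived resident macrophages), Trem2 (the lipid receptor of lipid-associated macrophages) or Ccr2 (the chemokine receptor of monocytes and their recent descendants) at 2000 UMIs per cell. Lyve1+ cells numbered 1128 in CKO HFD, 250 in WT HFD, 720 in CKO normal diet and 418 in WT normal diet, and Trem2+ cells 1819, 1632, 250 and 227. Ccr2+ cells numbered 4468, 2999, 1967 and 1830, and Timd4+ cells 69, 10, 175 and 98. The 10 Timd4+ cells of WT HFD were too few, so that 3 libraries entered that comparison. The sets overlap: of Lyve1+ cells, 49.6%, 52.8%, 34.6% and 44.7% were also Ccr2+. A missing UMI does not show that a cell lacks the gene. For each set, the deposited counts of positive and of negative cells were summed within each library and compared across libraries with edgeR's quasi-likelihood test, with library as a block and Benjamini-Hochberg adjustment over all genes. edgeR shares variance between genes, so the p-values do not measure the spread of each gene between libraries alone. The libraries are of 4 different groups, of which 3 entered for Timd4+ cells.

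Lyve1+ cells held more Mertk, Gas6 and Pros1 and less Axl, Itgav, Itgb5 and Lrp1 than Lyve1− cells. Gas6 stood at 437 CPM in Lyve1+ against 119.9 in Lyve1− cells of CKO HFD, 506 against 83.4 in WT HFD, 826 against 244 in CKO normal diet and 670 against 208 in WT normal diet, and rose by 2.00 on the log2 scale (SE 0.16, adjusted p = 4.25e-05). Mertk stood at 87.8 against 38.7, 176 against 56.2, 228 against 78.9 and 191 against 68.0 CPM in the same order, a log2 change of 1.32 (SE 0.091, adjusted p = 2.98e-05). Pros1 stood at 152 against 72.4, 176 against 73.7, 329 against 158 and 251 against 131 CPM, a log2 change of 0.90 (SE 0.073, adjusted p = 4.33e-05). All 3 were higher in Lyve1+ cells of each library.

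Axl ran the other way in Lyve1+ cells. It stood at 68.3 CPM in Lyve1+ against 131 in Lyve1− cells of CKO HFD, 30.0 against 129 in WT HFD, 38.2 against 53.2 in CKO normal diet and 52.6 against 83.3 in WT normal diet, and fell by 1.09 on the log2 scale (SE 0.21, adjusted p = 0.00359). Itgav fell by 1.10 (SE 0.15, adjusted p = 0.000537), Itgb5 by 0.55 (SE 0.15, adjusted p = 0.0184) and Lrp1 by 0.35 (SE 0.065, adjusted p = 0.00304), each lower in Lyve1+ cells of all 4 libraries. Mfge8 (−0.21, adjusted p = 0.535) and Elmo1 (0.025, adjusted p = 0.821) did not pass. Of all 12113 genes tested, 15.8% were higher and 20.3% lower in Lyve1+ cells, against 3 and 4 of the 9 members tested. Itgb5 did not pass without CKO HFD (adjusted p = 0.137) or without WT HFD (adjusted p = 0.0601). Stab2 was not tested here for low counts.

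Timd4+ cells also held more Gas6, Mertk and Pros1 than Timd4− cells. Of Timd4+ cells, 42.0% in CKO HFD, 46.3% in CKO normal diet and 39.8% in WT normal diet were Lyve1+ as well. Gas6 stood at 464 CPM in Timd4+ against 164 in Timd4− cells of CKO HFD, 734 against 345 in CKO normal diet and 724 against 257 in WT normal diet, and rose by 1.16 on the log2 scale (SE 0.12, adjusted p = 2.69e-19). Mertk rose by 0.67 (SE 0.15, adjusted p = 0.000396) and Pros1 by 0.52 (SE 0.13, adjusted p = 0.00276), and Itgav fell by 0.63 (SE 0.20, adjusted p = 0.0259). With 3 libraries, these edgeR p-values rest almost wholly on variance shared over genes, and their small size does not measure each gene's spread between libraries. Higher were 3 of 9 against 3.69% of 12142 genes, and lower 1 of 9 against 4.31%. Without CKO normal diet, which has the most Timd4+ cells, Gas6 alone passed (Mertk adjusted p = 0.127, Pros1 0.146, Itgav 0.343). Without WT normal diet Pros1 (adjusted p = 0.231) and Itgav (adjusted p = 0.124) did not pass. Axl, Mfge8, Itgb5, Lrp1 and Elmo1 were not called, with log2 changes between −0.40 and 0.24.

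Trem2+ cells held more Axl, Mfge8, Itgav, Itgb5 and Lrp1 than Trem2− cells. Itgb5 stood at 69.8 CPM in Trem2+ against 34.4 in Trem2− cells of CKO HFD, 95.9 against 66.6 in WT HFD, 88.0 against 35.3 in CKO normal diet and 81.5 against 44.4 in WT normal diet, a log2 change of 1.15 (SE 0.10, adjusted p = 4.76e-05). Axl stood at 144 against 114, 147 against 110.1, 126 against 44.2 and 137 against 74.4 CPM in the same order, a log2 change of 0.69 (SE 0.10, adjusted p = 0.00121). Both were higher in Trem2+ cells of each library, and the Trem2+ levels of Axl lay close together over the 4 libraries. Itgav rose by 0.65 (SE 0.086, adjusted p = 0.000573) and Lrp1 by 0.41 (SE 0.071, adjusted p = 0.00298). Of the 9 members tested in every set, 5 were higher, against 9.11% of 12987 genes, and 0 lower, against 10.5%.

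Mfge8 and Stab2 were called in Trem2+ cells on few UMIs. Mfge8 had a log2 change of 1.61 (SE 0.22, adjusted p = 0.000684), with thinned levels of 20.9 CPM in Trem2+ against 16.8 in Trem2− cells of CKO HFD, 41.1 against 13.6 in WT HFD, 20 against 12.1 in CKO normal diet and 8.81 against 14.1 in WT normal diet. It was thus not higher in WT normal diet, where 4 UMIs came from Trem2+ cells, and with thinned counts its log2 change was 0.89 (adjusted p = 0.0172). Stab2 had a log2 change of 2.31 (SE 0.33, adjusted p = 0.000921). It rests on the 57 Stab2 UMIs of WT HFD, without which too few counts were left for a test. Mertk (0.21, adjusted p = 0.331), Gas6 (−0.067, adjusted p = 0.835), Pros1 (−0.20, adjusted p = 0.0920) and Elmo1 (−0.17, adjusted p = 0.129) did not pass over the 4 libraries together.

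Ccr2+ cells held less Gas6, Mfge8, Itgb5, Mertk and Itgav than Ccr2− cells. Gas6 stood at 123 CPM in Ccr2+ against 227 in Ccr2− cells of CKO HFD, 74.9 against 166 in WT HFD, 211 against 563 in CKO normal diet and 170.5 against 427 in WT normal diet, and fell by 0.96 on the log2 scale (SE 0.11, adjusted p = 0.00172). Mertk stood at 39.6 against 54.8, 56.2 against 75.1, 72.2 against 159 and 60.7 against 122 CPM in the same order, and fell by 0.52 (SE 0.13, adjusted p = 0.0324). Both were lower in Ccr2+ cells of each library. Mfge8 fell by 1.41 (SE 0.22, adjusted p = 0.00606), Itgb5 by 0.65 (SE 0.13, adjusted p = 0.0141) and Itgav by 0.30 (SE 0.075, adjusted p = 0.0340). The Mfge8 change rests on deposited counts, of which the richest 1% of cells held 42.5% in CKO HFD and 61.6% in WT HFD. Lower were 5 of 9 against 8.21% of 12656 genes, and 0 higher against 6.62%. Itgav did not pass when any 1 of the 4 libraries was left out (adjusted p from 0.0553 to 0.0867), Mertk did not pass without CKO HFD (0.0503), CKO normal diet (0.0940) or WT normal diet (0.124), and Itgb5 did not pass without WT normal diet (0.0571).

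**Figure D3:**
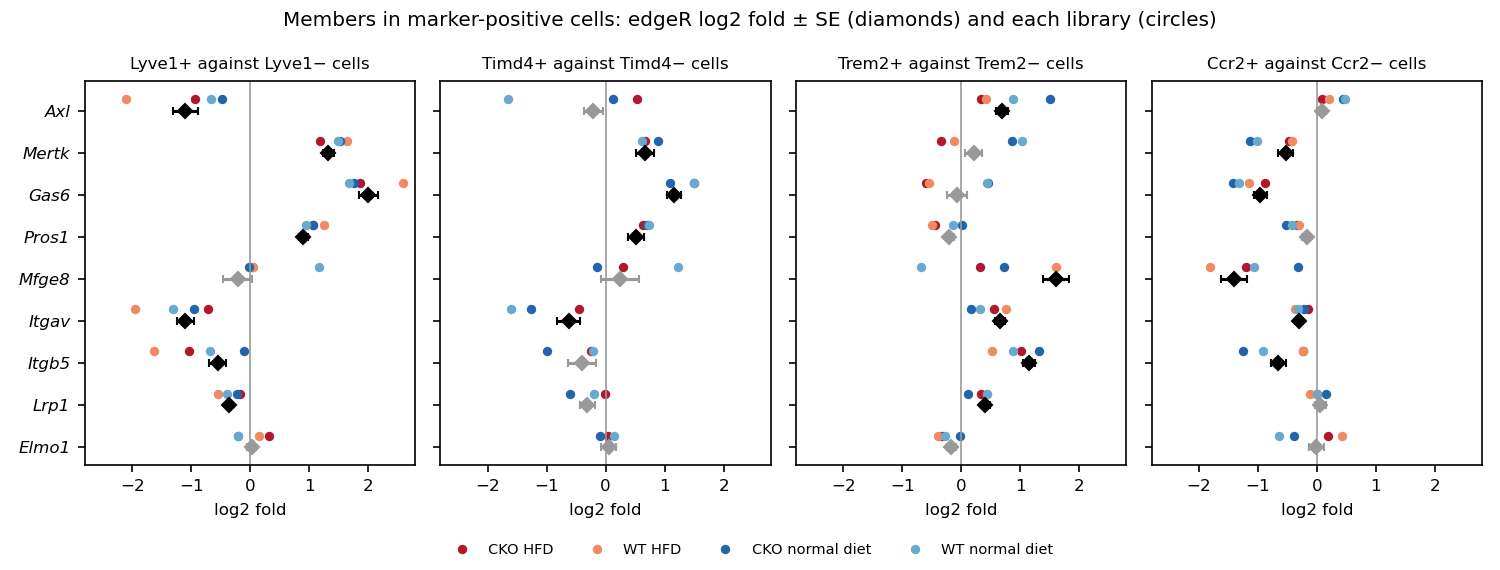
Log2 fold of positive over negative cells for 9 genes in 4 marker sets; diamonds are edgeR log2 folds with SE from deposited counts across libraries (black where the adjusted p is under 0.05, grey otherwise) and circles are the log2 ratios of thinned levels in each library. Mertk, Gas6 and Pros1 lie right of 0 in all libraries for Lyve1+ cells. Gas6 and Mertk fall on opposite sides of 0 by diet for Trem2+ cells, with Mertk of WT HFD close to 0.

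The tie of Gas6, Mertk and Axl to Trem2 differed between the diets. Gas6 stood at 119.6 CPM in Trem2+ against 181 in Trem2− cells of CKO HFD and 81.8 against 120.1 in WT HFD, but at 486 against 355 in CKO normal diet and 357 against 265 in WT normal diet. Mertk stood at 37.9 against 48.4 and 59.1 against 64.7 in the HFD libraries, and at 188 against 104 and 161 against 78.8 in the normal-diet libraries. Both genes were thus lower in Trem2+ cells of the HFD libraries and higher in those of the normal-diet libraries. For Mertk in WT HFD the gap, 59.1 against 64.7 CPM, was small and within counting error. Of Trem2+ cells, 8.8% in CKO HFD, 3.74% in WT HFD, 26% in CKO normal diet and 14.98% in WT normal diet were also Lyve1+. Lyve1+ cells, the richer in both genes, made up 14.7%, 5.45%, 20.7% and 13.8% of all thinned cells in the same order. The Lyve1+ share of Trem2+ cells was thus below that of all cells under HFD and above it under normal diet. The part of this overlap in the Trem2 contrast was not tested. The difference of the Trem2 contrast, HFD minus normal diet, was −0.99 on the log2 scale for Gas6 (SE 0.095, edgeR adjusted p = 6.58e-05), −0.78 for Mertk (SE 0.11, adjusted p = 0.00142) and −0.51 for Axl (SE 0.11, adjusted p = 0.0181), with 2 libraries per diet. Axl was higher in Trem2+ cells under both diets, and by more under normal diet. Of all genes, 3.1% differed in this way, and the other 7 members did not pass. This comparison was chosen after the values of each library had been seen.

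The Ccr2 contrast differed between diets for 6 of the 9 members, against 16.8% of all genes. The difference, HFD minus normal diet, was 0.61 for Mertk (SE 0.097, edgeR adjusted p = 0.00301), 0.58 for Itgb5 (SE 0.12, adjusted p = 0.00821), 0.55 for Elmo1 (SE 0.10, adjusted p = 0.00606) and 0.41 for Gas6 (SE 0.11, adjusted p = 0.0263). For Mfge8 it was −1.01 (SE 0.26, adjusted p = 0.0249) and for Lrp1 −0.34 (SE 0.084, adjusted p = 0.0206). The Mfge8 value rests on the same counts, uneven between cells. Elmo1 stood at 96.0 CPM in Ccr2+ against 84.4 in Ccr2− cells of CKO HFD and 234 against 174 in WT HFD, and at 327 against 426 in CKO normal diet and 300.3 against 468 in WT normal diet, so that it was higher in Ccr2+ cells under HFD and lower under normal diet. Ccr2+ cells were also deeper than Ccr2− cells under normal diet (median 6041 against 3725 UMIs in CKO and 6078.5 against 3713.5 in WT). The same held by less in CKO HFD (4631 against 3940) but not in WT HFD (14177 against 15510), and the part of depth was not tested. The Lyve1 contrast differed between diets for 0.801% of all genes and for none of the 9 members, with 3 at an unadjusted p under 0.05. Between genotypes the contrasts differed for 0% (Lyve1), 0.0077% (Trem2) and 0% (Ccr2) of genes and for no member, while 220, 269 and 124 genes had an unadjusted edgeR p under 0.05. The genotype term was fitted without a diet term, so differences between diets stayed in its residual variance. For Mertk in the Ccr2 contrast the SE was 0.28 for genotype against 0.097 for diet. The lack of calls thus does not show that the contrasts are alike in the genotypes.

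**Figure D4:**
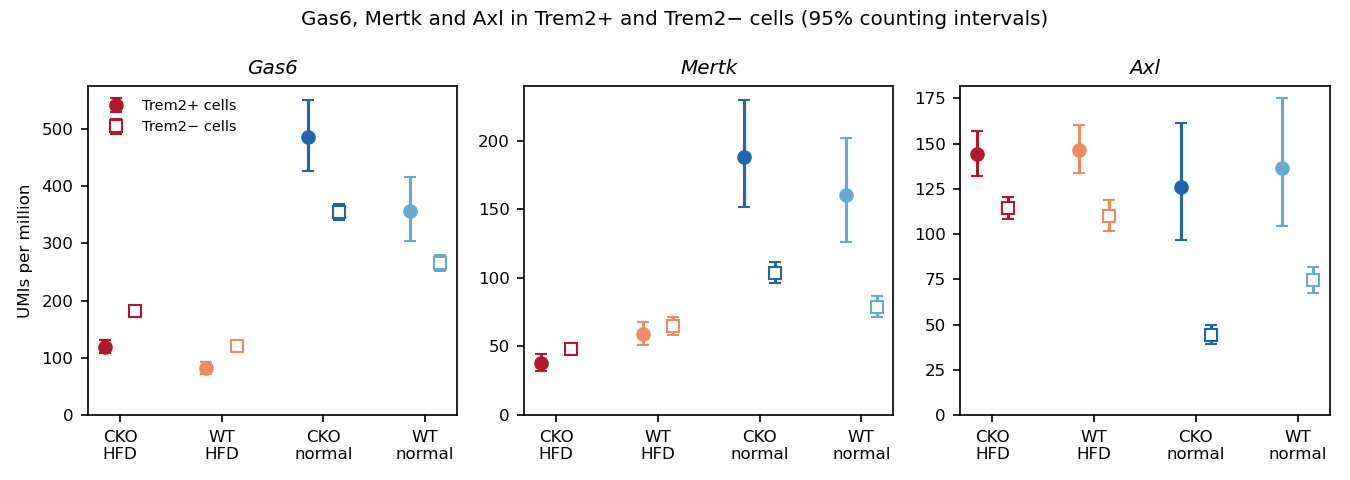
Levels of Gas6, Mertk and Axl (CPM, linear axes from 0) in Trem2+ cells (filled circles) and Trem2− cells (open squares) of each library, with exact 95% Poisson intervals. Filled points lie below open ones for Gas6 and Mertk in both HFD libraries and above them in both normal-diet libraries, while Axl in Trem2+ cells lies between 126 and 147 in all 4. The Mertk intervals of WT HFD overlap.

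Levels within a set could differ from those over all cells. Within Lyve1+ cells, Gas6 in CKO HFD was 0.863 times (0.751 to 0.995) the WT HFD level, whereas it was 1.46 times (1.25 to 1.71) within Trem2+ cells and 1.65 times (1.48 to 1.84) within Ccr2+ cells. Lyve1+ cells, the richer in Gas6, made up 14.7% of CKO HFD and 5.45% of WT HFD cells. The part of these shares in the Gas6 ratio over all cells was not tested. Over all cells, the higher Gas6 level in CKO HFD was not seen among cells of at least 4000 UMIs, as given above. The Gas6 ratios within sets are not given at that depth. Axl within Lyve1+ cells of CKO HFD was 2.28 times (1.34 to 4.16) the WT HFD level, where 15 UMIs stood behind the WT value. Mertk was lower in CKO HFD within every set measured, at 0.499 times the WT HFD level (0.386 to 0.649) in Lyve1+, 0.642 (0.512 to 0.802) in Trem2+ and 0.705 (0.606 to 0.821) in Ccr2+ cells. Itgav was at 0.348 (0.293 to 0.412) in Trem2+ and 0.377 (0.329 to 0.431) in Ccr2+ cells, and at 0.857 (0.479 to 1.63) in Lyve1+ cells, where few UMIs leave a wide interval. Elmo1 was at 0.466 (0.373 to 0.585), 0.432 (0.373 to 0.50) and 0.410 (0.376 to 0.447) in Lyve1+, Trem2+ and Ccr2+ cells. The median log2 ratio of all genes, CKO HFD over WT HFD, was −0.17, −0.22 and −0.22 within the same sets. Over all cells, the span group of Mertk and Itgav had a median of −0.56 in this comparison, and that of Elmo1 −0.80. Ratios within sets were not set against genes of like span, and the part of gene length in them was not tested.

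The diet ratios within sets also differed from those over all cells. The median log2 ratio of all genes, HFD over normal diet, was −0.60 in CKO and −0.30 in WT within Trem2+ cells. It was −0.45 and −0.17 within Ccr2+ cells and −0.41 and −0.17 within Lyve1+ cells. Within Trem2+ cells Axl was 1.14 times (0.879 to 1.51) the normal-diet level in CKO HFD and 1.07 times (0.823 to 1.42) in WT HFD, above the median of all genes in both. Within Ccr2+ cells Axl was 2.19 times (1.90 to 2.54) as high under HFD in CKO and 1.45 times (1.27 to 1.65) in WT. Within Lyve1+ cells it was 1.79 times (1.31 to 2.48) the normal-diet level in CKO and 0.570 times (0.295 to 1.04) in WT, where 15 UMIs stood behind the HFD value. Mertk within Trem2+ cells was 0.202 times (0.154 to 0.265) the normal-diet level in CKO HFD and 0.368 times (0.280 to 0.488) in WT HFD. Within Lyve1+ cells Mertk was 0.384 times (0.320 to 0.460) the normal-diet level in CKO and 0.920 times (0.701 to 1.2) in WT. Gas6 within Trem2+ cells was 0.246 times (0.210 to 0.289) the normal-diet level in CKO HFD and 0.229 times (0.188 to 0.280) in WT HFD. The smaller Lyve1+ share of Trem2+ cells under HFD, given above, was not accounted for in these ratios. Nor were they set against genes of like span. Over all cells, the span group of Mertk had median log2 ratios of −1.15 in CKO and −0.56 in WT.

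The other genes of the pathway were read from lists by role. Among 9 other bridging molecules above 10 CPM, 6 were over 1.5-fold higher under HFD in CKO, against 13% of all genes, and 7 in WT, against 13.7%. C1qa and C1qb, the complement C1q chains that coat dying cells, stood at 3357 and 3404 CPM in CKO HFD, 2344 and 3060 in WT HFD, 1497 and 941 in CKO normal diet, and 1215 and 769 in WT normal diet. C1qc, C3, Lgals3 and Anxa1 were also higher in both genotypes. In WT, C4b and Thbs1 were lower. C1q chains thus stood higher in the HFD libraries, where Gas6 and Pros1 were lower. The list's median log2 ratio was 1.17 in CKO and 0.95 in WT, against −0.50 and −0.24 over all genes. Neither this list nor those below were set against genes of like span, although the diet ratios moved with gene length. The part of length in the list ratios was not tested.

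Engulfment machinery, the Rac and DOCK side of Elmo1, was in part lower under HFD, in shares near those of all genes. Of 20 genes, 12 were over 1.5-fold lower in CKO, against 46% of all genes, and 7 in WT, against 29.8%, and 0 were higher in either. Dock1, Dock2 and Dock5, partners that form exchange factors with Elmo1, were among the lower ones in both genotypes. The list's median log2 ratio was −0.87 in CKO and −0.44 in WT, against −0.50 and −0.24 over all genes. In CKO HFD against WT HFD, 8 were lower, against 21.1% of all genes, and 1, the adhesion kinase gene Ptk2, was higher. Cdc42 stood at 873 CPM in CKO HFD, 813 in WT HFD, 1112 in CKO normal diet and 1082 in WT normal diet, and Arpc2, a subunit of the actin-branching Arp2/3 complex, at 783, 1039, 1024 and 1032 CPM in that order. Neither passed 1.5-fold.

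Of 14 other receptors, 5 were lower under HFD in CKO, against 46% of all genes, and 5 in WT, against 29.8%, with Timd4, Stab1, Havcr2 and Itgam in both, so the shares are near those of all genes. Trem2 was higher in both genotypes. The scavenger receptor Cd36 stood at 692 CPM in CKO HFD, 810.4 in WT HFD, 1037 in CKO normal diet and 1175 in WT normal diet. Of 16 corpse digestion genes, 1 (Ctsl) was higher and 7 (Rab5a, Lamp2, Rubcn, Atg5, Atg7, Uvrag and Slc29a3) were lower under HFD in CKO, against 13% and 46% of all genes. In WT, Ctsd, Ctsl and Lipa were higher and Rubcn, Uvrag and Hmox1 lower, 3 each against 13.7% and 29.8%. Ctsd, a lysosomal protease, stood at 491 CPM in CKO HFD, 860.2 in WT HFD, 433 in CKO normal diet and 429 in WT normal diet, and Lamp1, a lysosome membrane protein, at 688, 701, 818 and 736. In CKO HFD against WT HFD, 5 digestion genes were lower (Atg7, Uvrag, Ctsd, Ctsl and Lipa), against 21.1% of all genes. Of 11 find-me and do-not-eat-me genes, 5 were lower under HFD in CKO, against 46% of all genes, and 6 in WT, against 29.8%. Sirpa, the receptor for the Cd47 signal that restrains engulfment, stood at 325, 426, 530 and 500 CPM, and Cd47 at 296, 348, 435 and 442. Of the genes that respond to engulfment, 2 of 16 were higher under HFD in CKO (Nr1h3 and Ucp2) and 1 of 15 in WT (Nr1h3, a cholesterol sensor gene), and 4 were lower in each, with Ppard, Slc7a11 and Alox15 in both. These shares are at or below those of all genes. Ucp2, a mitochondrial carrier gene, stood at 811 CPM in CKO HFD, 757 in WT HFD, 514 in CKO normal diet and 538 in WT normal diet.

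The lists divided between the marker sets too. In Lyve1+ cells C1qa, C1qb, C1qc and C4b rose with Gas6 and Pros1, and Thbs1, Lgals3, C3 and Anxa1 fell, 4 and 4 of 10 tested. Timd4+ cells had the same 4 complement genes higher and Lgals3 lower. In Trem2+ cells Anxa5, C1qb, C1qc, Lgals3 and Anxa1 rose and C3 fell, and 7 of 16 digestion genes rose, with Uvrag the one that fell. The 7 were Ctsd, Ctsl, Lipa, Lamp1, Hmox1, Dnase2a and Map1lc3b. Of 20 machinery genes in Trem2+ cells, Abca1 rose and 6 fell (Vav3, Dock1, Abca7, Pik3r1, Dock5 and Rac2). In Lyve1+ cells 5 rose, among them Dock1 and Ptk2, and 8 fell, among them Dock2, Dock5, Dock8 and Rac2. In Ccr2+ cells Elmo2, Abca7, Rac2 and Dock8 rose and Ptk2 fell, and C1qa, C1qc and C4b fell while Thbs1 rose. All of these are edgeR calls at an adjusted p under 0.05 over all genes, where 15.8% of genes were higher and 20.3% lower in Lyve1+ cells, 3.69% and 4.31% in Timd4+ cells, 9.11% and 10.5% in Trem2+ cells, and 6.62% and 8.21% in Ccr2+ cells.

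The genes most like each member were sought over 15 sums, the marker-positive cells of each library, centred within library, among 3212 genes. Gas6 was closest to Cbr2 (Pearson's r = 0.995), C4b (0.994) and Slc9a9 (0.992), and Mertk to Gpr34 (0.990), C1qa (0.976) and Tcf4 (0.969). Pros1 was closest to Tfrc (0.989), Abca9 (0.987) and Tsc22d3 (0.985). Axl was closest to Lst1 (0.914), Il1rn (0.908) and Cxcr4 (0.905), and Itgav to Tpt1 (0.957), Psap (0.954) and Lpl (0.947). Itgb5 was closest to Soat1 (0.933), Srp14 (0.919) and Nudc (0.899), Lrp1 to Itgav (0.932), Znhit1 (0.925) and Tyrobp (0.924), and Elmo1 to Crebbp (0.924), Snrnp70 (0.917) and Dleu2 (0.894). The sums share libraries and overlapping cells, so r is a description here.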

How the data were processed

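Raw UMI counts were deposited for each library, made with Cell Ranger 7.0.0 per the file headers. The build, GRCm38, comes from the submitters' processing notes, and the sources used here do not say if counts include introns. Positions and spans come from GENCODE M21, which held 32158 of the 32285 gene identifiers. Totals per library ran from 21829741 to 74879066 UMIs.

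Cells over the mitochondrial limit numbered 7, 400, 23 and 23, and cells too shallow for thinning 1076, 67, 820 and 675, in CKO HFD, WT HFD, CKO normal diet and WT normal diet. Scrublet (scanpy 1.11.5) called 0 doublets in each library by its automatic threshold, so none were removed. Removing 610, 173, 148 and 110 cells of top score was tried as an alternative. Levels carry exact Poisson, shares exact Clopper-Pearson and ratios exact conditional binomial intervals at 95%, for counting error only. With 1 library per group no test between groups was run. A gene was counted as higher or lower past 1.5-fold if it had 10 CPM in 1 of the libraries compared. Marker sets of at least 20 cells were tested with edgeR 4.0.16 (filterByExpr, TMM, adjusted p under 0.05), with DESeq2 1.42.0 as an alternative. Named genes are the 10 members, the 2 most abundant genes of each pathway list, the 3 genes most like each member (Pearson's r of log2 of CPM plus 10, for genes of at least 50 and members of at least 20 CPM on average) and Prdm1. One gene that this rule names is not reported here. Genes of a list named by symbol alone were chosen after their values were seen. The members and lists were chosen with earlier results of these data known. The edgeR test and the ratio intervals were tried on simulated data, and DESeq2 was not.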

Additional observations from a re-analysis of the deposited data

Results flagged for a closer look

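Mertk differed between genotypes in opposite directions by diet. The ratio of CKO over WT was 0.732 under HFD and 1.29 under normal diet, and the difference between these ratios was not tested, with 1 library per group. Itgav differed between diets in opposite directions by genotype: HFD over normal diet was 0.597 in CKO and 1.47 in WT, and this difference was not tested either. Against genes of like span, Mertk under HFD lay 0.11 above and Itgav in CKO 0.41 above on the log2 scale.

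The contrast of Trem2+ with Trem2− cells, HFD minus normal diet, differed by −0.99 for Gas6, −0.78 for Mertk and −0.51 for Axl on the log2 scale, by an edgeR interaction term over all genes. The contrast of Ccr2+ with Ccr2− cells differed by 0.61 for Mertk, 0.41 for Gas6, −1.01 for Mfge8, 0.58 for Itgb5, −0.34 for Lrp1 and 0.55 for Elmo1. These interaction terms were added after the values of each library had been seen.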

How the results depend on the processing

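Counts of members are given here where they moved by over 1.5 times. For CKO over WT under HFD, 1 member was higher and 3 lower; at 4000 UMIs, without thinning and by a 2-fold rule 0 were higher, and with no filter on low levels 2. The Gas6 log2 ratio there turned to −0.075 at 4000 UMIs. For CKO over WT under normal diet, 1 was lower, against 0 at 4000 UMIs, 0 by a 2-fold rule and 2 with no filter. For HFD over normal diet in CKO, 1 was higher, against 2 at 1000 UMIs, at 4000 UMIs, without thinning, with another seed and with no filter, and 4 with TMM. For WT, a 2-fold rule gave 0 higher and 1 lower, against 3 and 3. Subtracting the median of the span group gave 2 higher and 1 lower for CKO over WT under HFD, 4 and 1 for diet in CKO and 5 and 1 for diet in WT, and turned Itgav in CKO to 0.41.

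No paired analysis was possible because the labels carry no replicate numbers and each group is 1 library; the library block is part of each marker comparison. Without it, 0 were lower in Lyve1+, 0 higher and 0 lower in Timd4+, 0 higher in Trem2+ and 0 lower in Ccr2+ cells. In Timd4+ cells 0 were lower with DESeq2, with positive cells at 2 UMIs, with cells of 1 marker and without cells of other types, and 1 was higher with cells of 1 marker. In Trem2+ cells 3 were lower with positive cells at 2 UMIs (Gas6, Pros1 and Elmo1) and 1 with cells of 1 marker. Leaving out each library gave 1 to 3 higher and 0 to 1 lower in Timd4+, 0 to 1 lower in Trem2+ and 2 to 4 lower in Ccr2+ cells. Of the counts recomputed, 151 stayed within 1.5 times and 39 did not. Of single marker changes 413 kept their call, 48 lost it and 7 gained one, and none reversed. Ratios of single members between groups were less stable: 226 stayed within the main interval, 96 moved out of it and 2 reversed. For shares of cells 6 stayed within the main interval and 74 did not, and for list medians 17 stayed and 7 moved. The cause of these shifts was not tested, and depth limits what can be said of Stab2 and Mfge8.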
